A study of Mus musculus with 19 samples.

Results

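The genes described here are 42 mouse genes of very long genomic span, most of them neuronal adhesion and signalling genes. They were chosen by name, and the symbols were matched to Ensembl identifiers with the GENCODE M21 annotation of the mouse genome (GRCm38, mm10). All 42 symbols matched 1 identifier each, out of 48709 genes in the count files. All 42 passed the filter on low counts, as did 19297 genes in all. Their expression was measured by polyA RNA sequencing of the CA1 region of the hippocampus of 7-month-old mice, in 19 libraries. In the WT control group (n = 6) wild-type littermates received a control oligonucleotide, and in the APP control group (n = 6) APPPS1-21 mice received it. In the APP anti-miR-mix group (n = 7) APPPS1-21 mice received a mixture of inhibitors of 3 microRNAs, namely miR-148a-3p, miR-181a-5p and miR-146a-5p. The oligonucleotides were given in lipid nanoparticles injected into the dorsal hippocampus in all groups. APPPS1-21 mice carry a mutant human APP under the Thy1 promoter, which drives expression in neurons. The titles of the WT control libraries also contain the name of the anti-miR-mix, while the study describes a control oligonucleotide for wild-type mice.

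Genes of this kind are transcribed over long distances, and almost all of the transcribed sequence is intron that is removed by splicing. In the brain they encode mainly proteins of the neuronal surface, such as cell adhesion molecules, axon guidance receptors and auxiliary subunits of ion channels. Long genes are a known feature of neurons, which express more of them than most other tissues. The libraries were made from polyadenylated RNA, and the values are read counts per gene.

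The 42 genes spanned 520.0 to 2271 kb, with a median of 1137 kb, against a median of 18.7 kb over all genes tested. 30 of them reached 1000 kb, out of 57 such genes among all genes tested. Their exons added up to a median of 10.8 kb and covered a median of 0.986% of the span, against 20.9% over all genes tested. The longest was Ptprd, a receptor protein tyrosine phosphatase at synapses (chr4:75941238-78211961, minus strand), and the shortest was Robo2, an axon guidance receptor for Slit proteins (chr16:73891839-74411825, minus strand). Per kb of exon, the normalized read count had a median of 150.6 in the 42 genes and of 93.1 over all genes tested. Rbfox1, a neuronal splicing regulator, had the highest value at 1548 per kb of exon. Ctnna3, an alpha-catenin, had the lowest at 8.52 per kb of exon. Together the 42 genes took 0.361 to 0.467% of the counts of a library.

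Within the role groups the levels differed widely. Among adhesion molecules, receptor phosphatases and catenins (15 genes), the mean normalized read count ran from 61.6 for Ctnna3 to 11184 for Lsamp, a GPI-anchored adhesion molecule of the IgLON family. The 4 CSMD and LRP1B genes, which encode very large membrane proteins, lay between 1178 for Csmd3 and 3577 for Csmd1. Among guidance receptors and neuregulin signalling genes (5 genes) Nrg1, a neuregulin, was lowest at 255.6 and its receptor Erbb4 highest at 2654. Among ion channel partners (5 genes) Fgf14, which binds sodium channels, had 730.6 and Dpp6, an auxiliary subunit of A-type potassium channels, had 12460. Among genes of the dystrophin complex and scaffolds (4 genes) Sgcz, a sarcoglycan, had 65.4 and the synaptic scaffold Magi2 had 3108. The 4 regulators in the nucleus and cAMP signalling ran from 1120 for the phosphodiesterase Pde4d to 6812 for Rbfox1. The 5 enzymes and tumour suppressors in large genes ran from 61.8 for Fhit to 1472 for Macrod2. These are levels and not corrected for exon length.

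The libraries held 19362343 to 37018917 counts. Thy1 and App served as a check of the genotype labels. The log2 difference from WT control was 1.40 for Thy1 and 0.50 for App in APP control, and 1.33 and 0.46 in APP anti-miR-mix. All 4 differences passed the threshold in DESeq2, with an adjusted p of 1.5e-19 for the weakest of them. All 6 markers of CA1 neurons were detected in every library. WT control 5 and APP anti-miR-mix 6 stood apart by genes of the choroid plexus, with a summed level of 82.4 and 60.7 CPM (counts scaled to a common library total) against 15.8 to 31.5 in the other 17 libraries. Markers of the dentate gyrus were furthest above their group mean on the log2 scale in 4 libraries. The median deviations were 0.83 (WT control 4), 0.76 (WT control 5), 0.95 (APP control 3) and 0.87 (APP anti-miR-mix 4). These markers were also above the group mean in APP control 1 (0.077) and 6 (0.24) and in APP anti-miR-mix 2 (0.13), 6 (0.37) and 7 (0.17). WT control 4 was also lowest in its group for cortex (-0.53) and thalamus (-0.33) markers.

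The first comparison asked how the APPPS1-21 genotype changed the long genes. Most of them had lower levels in the transgenic mice with control oligonucleotide than in wild-type mice, by a small amount. The log2 fold change was below 0 for 37 of the 42 genes, against 54.4% of all genes tested. Its median was -0.15, against -0.012 over all genes tested, and its range was -0.35 to 0.14. Without the 2 libraries high in choroid plexus genes 37 were below 0, and the median was -0.14. Only 1 of the 42 passed the threshold of 0.05 for the adjusted p in DESeq2, when 5.00% of all genes tested passed it in either direction, 1.11% lower and 3.89% higher. Without adjustment 14 of the 42 genes had a p under 0.05, all 14 of them lower, which is 33.3%. This number was 7 without WT control 6 or without APP control 2, 9 without WT control 4, 22 without APP control 6 and 9 without the 2 libraries high in choroid plexus genes, all of them lower. Among all genes 13.7% had such a p, 5.54% lower and 8.17% higher. In no member did the 6 APP control libraries lie wholly outside the range of the 6 WT control libraries, which was the case for 0.368% of all genes in the lower and 1.20% in the higher direction. In these bulk samples, fewer cells of a type and less RNA per cell cannot be told apart.

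**Figure D1:**
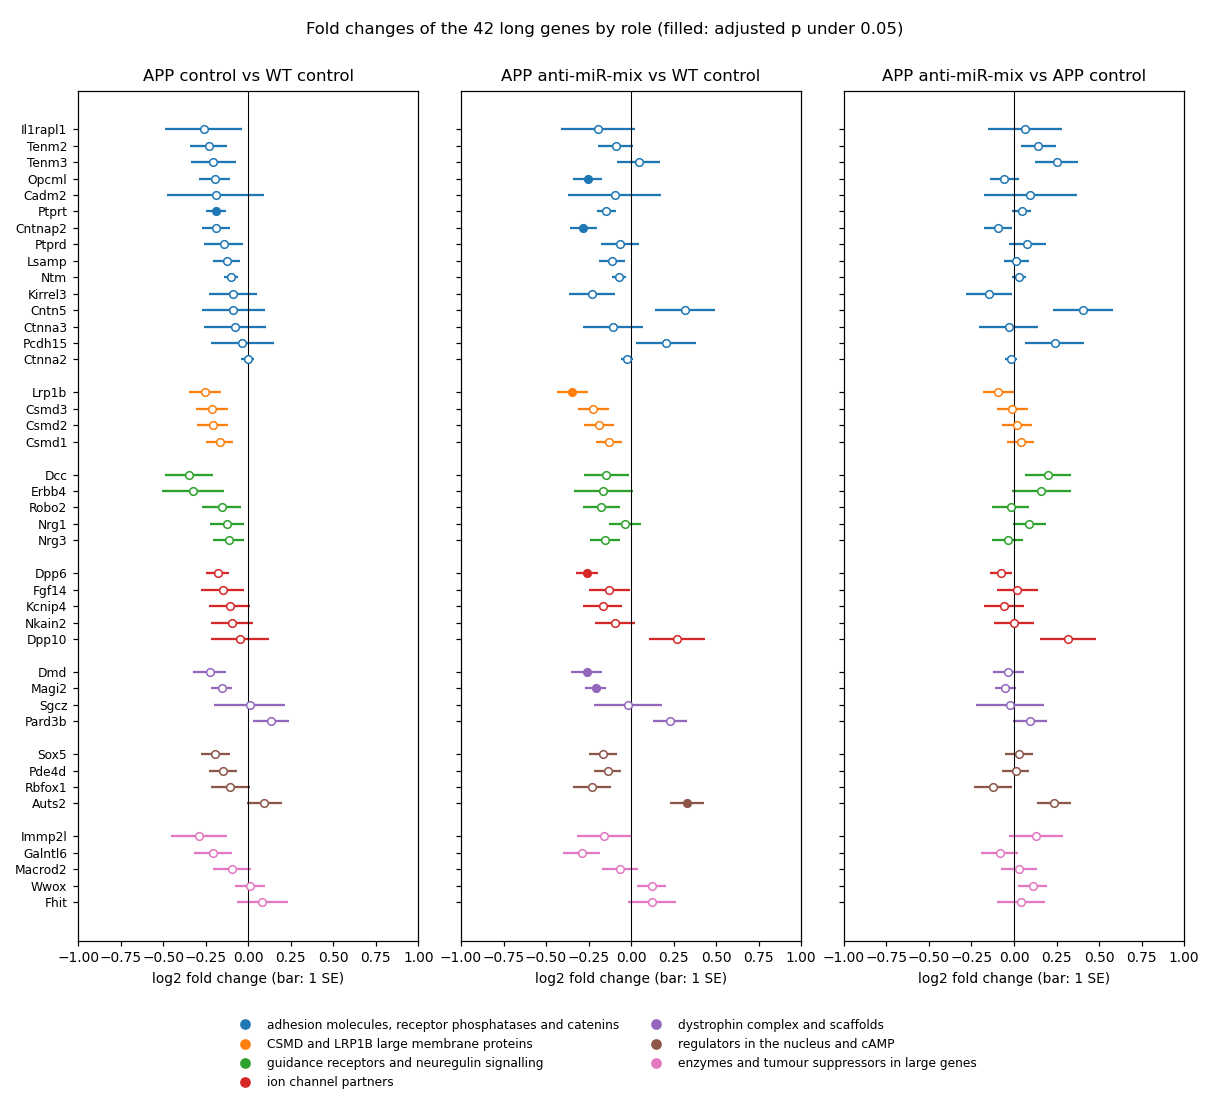
Log2 fold change (x axis) of each of the 42 long genes (y axis, coloured by role group and ordered within it by the first panel) in 3 comparisons; bars give 1 standard error and filled points have an adjusted p under 0.05 in DESeq2. In the first panel 37 of 42 points lie left of 0, in the second 34 of 42, and in the third 17 of 42.

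Ptprt was the gene called lower. It encodes a receptor protein tyrosine phosphatase of neurons and lies at chr2:161521990-162661147 on the minus strand. The normalized read count in WT control had its lowest value at 6646, its median at 7953 and its highest value at 8454. In APP control the lowest was 6313, the median 6849 and the highest 7397. Ptprt fell by 0.19 on the log2 scale (SE 0.059, DESeq2 adjusted p = 0.0314), and the exact permutation test of the 6 against 6 libraries gave a two-sided p of 0.0216. The ranges overlapped only because of WT control 4 and WT control 1, which lay within the range of APP control. In APP anti-miR-mix the lowest value was 6587, the median 7011 and the highest 7605, and the difference from WT control was -0.15 (SE 0.057, adjusted p = 0.0884). The call in APP control was lost in edgeR (0 of the 42 genes called, with 14 at an unadjusted p under 0.05) and when WT control 2, 3, 5 or 6 or APP control 2, 3 or 5 was left out. It was also lost without the libraries high in choroid plexus genes (0 of 42 called). Without APP control 6, whose long genes were the highest of its group, 5 were called lower, namely Ptprt, Lrp1b, Dmd, Dcc and Erbb4. Without WT control 1 there were 3 (Ptprt, Lrp1b, Sox5), and without APP control 1 there were 2 (Ptprt and Dpp6). Of all genes 4.82% were called without the choroid plexus libraries, 6.58% without APP control 6, 7.05% without WT control 1, 5.60% without APP control 1 and 3.22% in edgeR.

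Values by role group follow, and differences between these groups were not tested. All 15 adhesion molecules, receptor phosphatases and catenins had a log2 fold change below 0 (median -0.14), and 5 of them had an unadjusted p under 0.05 (Ptprt, Ntm, Cntnap2, Opcml, Tenm2). All 4 CSMD and LRP1B genes were below 0 with an unadjusted p under 0.05 (median -0.21, range -0.25 to -0.17), and none passed the adjusted threshold. All 5 guidance and neuregulin genes were below 0 (median -0.16), the lowest being Dcc, the netrin receptor, at -0.35 (SE 0.14, adjusted p = 0.160). All 5 ion channel partners were below 0 (median -0.11). Of the 4 dystrophin complex and scaffold genes 2 were below 0, Dmd at -0.23 and Magi2 at -0.16. Of the 4 regulators 3 were below 0 and Auts2 was at 0.094. Of the 5 enzymes and tumour suppressors 3 were below 0, with a median of -0.095. Ctnna2, which encodes the neuronal alpha-catenin, was at -0.0035 with a standard error of 0.037, the smallest error of the 42 genes.

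The same direction was seen in other genes of long span. Of 177 other genes with a span of at least 500 kb, 153 had a log2 fold change below 0 between the same groups, with a median of -0.13, and 9 were called lower and 5 higher. Without the 42 genes, the median of all genes tested went from 0.0083 under 10 kb of span to -0.0028 at 10 to 30 kb, -0.026 at 30 to 100 kb, -0.047 at 100 to 300 kb, -0.10 at 300 to 1000 kb and -0.17 over 1000 kb (27 genes). The share called lower was 0.501% under 10 kb, 2.48% at 100 to 300 kb, 5.38% at 300 to 1000 kb and 3.70% over 1000 kb, which is 1 of 27 genes, with 1 more called higher. The 30 members over 1000 kb had a median of -0.14 and the 12 others a median of -0.17. The values are descriptions, since genes are not replicates.

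Markers of cell types differed between the same libraries. All 14 neuronal markers were lower in APP control, with a median of -0.079, and 2 were called. Their summed level was 12269 to 13927 CPM in WT control and 11994 to 12894 in APP control. Gad1 and Gad2 are in this list and also among the interneuron markers that follow. Interneuron markers had a median of -0.21, with 7 of 8 below 0 and 3 called lower, and their summed level was 946.8 to 1097 CPM in WT control and 858.0 to 901.6 in APP control. All 12 microglia markers were higher, with a median of 1.09 and 10 called, and their summed level was 439.5 to 777.7 CPM in WT control and 785.3 to 1832 in APP control. The 7 endothelial markers were also all above 0 (median 0.28, 2 called higher), and astrocyte markers had a median of 0.21 (1 of 9 called higher). The part of these cell types in the difference of the long genes was not tested.

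The second comparison, APP anti-miR-mix against WT control, shares the 6 WT control libraries with the first. Again most long genes were lower in the transgenic mice, and 7 passed the threshold. Of the 42 genes 34 were below 0, and the median log2 fold change was -0.13 against -0.015 over all genes tested. Without the 2 libraries high in choroid plexus genes 33 were below 0, and the median was -0.12. 6 were called lower (Dpp6, Lrp1b, Cntnap2, Magi2, Opcml and Dmd) and Auts2 was called higher, when 9.51% of all genes tested were called in either direction, 3.57% lower and 5.94% higher. Without adjustment 14 of the 42 genes had a p under 0.05, 12 lower and 2 higher, when 19.4% of all genes did, 9.18% lower and 10.2% higher. Among the 177 other genes of at least 500 kb, 35 were called lower and 7 higher, and 135 were below 0. Cell type markers differed here too. All 12 microglia markers were higher (median 1.11, 11 called), as were all 9 astrocyte markers (median 0.16, 1 called), all 7 endothelial markers (median 0.25, 3 called) and all 6 thalamus markers (median 0.19, 2 called). Of the neuronal markers 12 of 14 were below 0 (median -0.10, 1 called lower), and interneuron markers had a median of -0.18 with 3 of 8 called lower. The summed level of microglia markers was 1043 to 1717 CPM in APP anti-miR-mix, that of neuronal markers 12061 to 12487 and that of interneuron markers 824.0 to 954.2. Their part in the difference of the long genes was not tested.

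**Figure D2:**
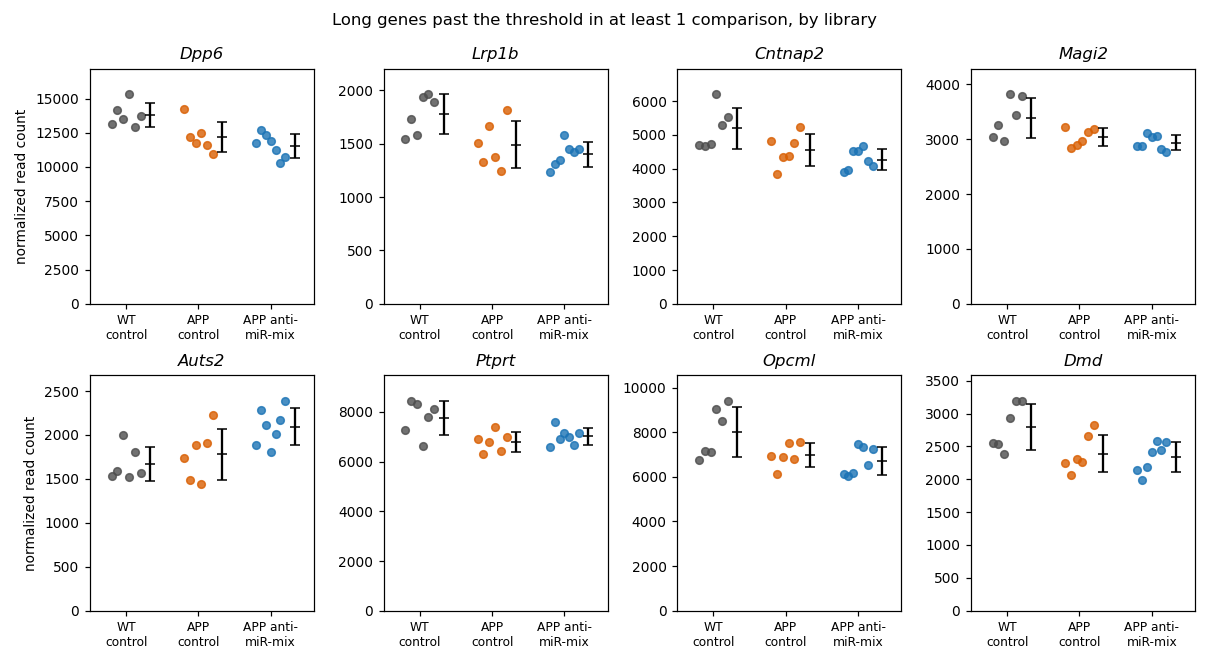
Normalized read count (y axis, from 0) in each library (points) of the 8 long genes called in at least 1 comparison, by group (x axis), with the group mean and SD at the right of each group. Dpp6 is the gene whose 7 APP anti-miR-mix libraries (10263 to 12666) all lie below the 6 WT control libraries (12883 to 15347).

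Dpp6 encodes a dipeptidyl peptidase-like protein that binds Kv4 potassium channels (chr5:26817203-27727505, plus strand). Its lowest, median and highest normalized read counts were 12883, 13613 and 15347 in WT control. In APP control they were 10970, 11944 and 14211, and in APP anti-miR-mix 10263, 11761 and 12666. Every APP anti-miR-mix library was below every WT control library, while 1 of the 6 APP control libraries (14211) lay inside the WT control range. Groups that did not overlap were found for 0.897% of all genes in the lower and 2.52% in the higher direction. Dpp6 fell by 0.26 on the log2 scale from WT control to APP anti-miR-mix (SE 0.064, DESeq2 adjusted p = 0.00174), and the exact permutation test gave a two-sided p of 0.00117, the smallest that 6 against 7 libraries allow.

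Lrp1b, a large receptor of the LDL receptor family (chr2:40595246-42653624, minus strand), had its lowest, median and highest counts at 1548, 1814 and 1969 in WT control. They were 1246, 1442 and 1819 in APP control and 1232, 1425 and 1584 in APP anti-miR-mix. A single APP anti-miR-mix library, at 1584, lay above the 2 lowest WT control libraries. The count fell by 21.3% in APP anti-miR-mix. The log2 fold change from WT control was -0.35 (SE 0.090, DESeq2 adjusted p = 0.00311) there and -0.25 (SE 0.093, adjusted p = 0.0989) in APP control. Exons of Lrp1b share 99 bases with a small gene on the same strand.

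Cntnap2 encodes Caspr2, a neurexin-like protein that clusters potassium channels along axons (chr6:45059357-47304213, plus strand). Its lowest, median and highest counts were 4664, 5010 and 6215 in WT control, 3843, 4561 and 5220 in APP control and 3902, 4234 and 4675 in APP anti-miR-mix. The highest APP anti-miR-mix library, at 4675, was just above the lowest WT control library, at 4664. The log2 fold change was -0.28 (SE 0.080, DESeq2 adjusted p = 0.00785) in APP anti-miR-mix and -0.19 (adjusted p = 0.222) in APP control.

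Magi2, a scaffold protein at synapses (chr5:19227036-20704792, plus strand), had 2970, 3348 and 3827 as lowest, median and highest counts in WT control. The values were 2832, 3049 and 3228 in APP control and 2762, 2870 and 3104 in APP anti-miR-mix. The upper values of APP anti-miR-mix overlapped with the lower values of WT control. The log2 fold change was -0.21 (SE 0.062, DESeq2 adjusted p = 0.0131) in APP anti-miR-mix and -0.16 (adjusted p = 0.167) in APP control. The call was lost without WT control 4, without WT control 6 and without the libraries high in choroid plexus genes.

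Opcml, an adhesion molecule of the IgLON family (chr9:27790775-28925410, plus strand), had 6747, 7845 and 9413 as lowest, median and highest counts in WT control, 6109, 6933 and 7565 in APP control and 6054, 6531 and 7487 in APP anti-miR-mix. Dmd, which encodes dystrophin (chrX:82948870-85206141, plus strand), had 2390, 2740 and 3196 in WT control, 2057, 2282 and 2820 in APP control and 1987, 2417 and 2587 in APP anti-miR-mix. For both genes the groups overlapped, and 3 of the 6 WT control libraries were above all APP anti-miR-mix libraries. The log2 fold change from WT control to APP anti-miR-mix was -0.25 for Opcml (SE 0.086, DESeq2 adjusted p = 0.0365) and -0.26 for Dmd (SE 0.092, adjusted p = 0.0466). Both calls were close to the threshold. Both were lost in edgeR, without WT control 4, 5 or 6 and without APP anti-miR-mix 1, 2, 3 or 6. They were also lost without the libraries high in choroid plexus genes. The Dmd call was lost as well with TMM scaling in DESeq2, without APP control 1, 3 or 4 and without APP anti-miR-mix 4. The Opcml call was lost as well with only the 2 groups compared. Of 31 alternatives, Dmd was called in 17 and Opcml in 21.

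Auts2 moved the other way. It encodes a nuclear regulator that acts with Polycomb group proteins and also in the cytoskeleton of neurons (chr5:131437333-132543344, minus strand). The lowest, median and highest counts were 1519, 1580 and 2002 in WT control, 1446, 1812 and 2226 in APP control and 1808, 2112 and 2391 in APP anti-miR-mix. Of the 6 WT control libraries 1, at 2002, lay within the range of APP anti-miR-mix. Auts2 rose by 0.33 on the log2 scale (SE 0.10, DESeq2 adjusted p = 0.0167), with an exact two-sided permutation p of 0.00408. This call was lost without WT control 4 or WT control 6.

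Leaving out single libraries moved the number called in the second comparison between 3 and 10. It was 3 without WT control 6 (Dpp6, Lrp1b and Cntnap2), 4 without WT control 4 and 10 without WT control 1, and 4 without the 2 libraries high in choroid plexus genes. The share of all genes called moved in the same direction, to 6.52% without WT control 6, 6.61% without WT control 4, 11.01% without WT control 1 and 6.94% without the choroid plexus libraries, from 9.51%. Dpp6, Lrp1b and Cntnap2 were called under each of the 31 other settings and left-out libraries that were run.

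The third comparison addressed the anti-miR-mix itself within transgenic mice. The 42 genes showed no call in DESeq2 (0 of 42, when 0% of all genes tested were called), in edgeR (0) or in limma on the deposited normalized values (0). Without adjustment DESeq2 gave 3 genes a p under 0.05, all higher, edgeR gave 3 and limma 4. Over all genes tested the share was 2.86% in DESeq2, 1.50% higher and 1.36% lower. The number of long genes with such a p in DESeq2 was 0 without APP control 2, APP control 4 or APP anti-miR-mix 7, and 8 without APP control 6. Of the 42 genes 25 were above 0 and 17 below 0, against 50.8% below 0 over all genes tested. The median was 0.025, against -0.0015 over all genes tested. In no member did the 2 groups lie wholly apart, which was the case for 0.0207% of all genes in the lower and 0% in the higher direction. The median lay between -0.019 and 0.059 when single libraries were left out. The same span classes that were lower in the transgenic mice had medians between -0.0073 and 0.039, without the 42 genes, in this comparison.

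The 3 genes with the smallest unadjusted p were all higher in APP anti-miR-mix. Auts2 was at 0.23 (95% interval 0.038 to 0.43, unadjusted p = 0.0192), and its exact permutation p was 0.0443. Cntn5, a contactin that takes part in the formation of neuronal contacts, had lowest, median and highest counts of 127.7, 172.1 and 222.6 in APP control and of 152.5, 216.4 and 307.1 in APP anti-miR-mix. Its log2 fold change was 0.40 (95% interval 0.057 to 0.75, DESeq2 unadjusted p = 0.0226). Tenm3, a teneurin that guides connections of the hippocampus, had 3406, 3946 and 5667 in APP control and 3631, 4811 and 5780 in APP anti-miR-mix, with a log2 fold change of 0.25 (95% interval 0.0026 to 0.50, DESeq2 unadjusted p = 0.0476). The groups overlapped for all 3 genes, and after adjustment over all genes tested none of the 3 passed the threshold (adjusted p = 1.00 in DESeq2 for each). The counts of Cntn5 and Tenm3 share exon positions with an antisense gene over 290 and 114 bases.

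Because the mixture inhibits 3 microRNAs, the annotated 3′ untranslated regions of the long genes were searched for their seed matches. The mature sequences are shown because their seeds define the letters that were searched (RefSeq, GRCm38.p6). Capitals mark the seed, bases 2 to 8.
miR-181a-5p: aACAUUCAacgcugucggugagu
miR-146a-5p: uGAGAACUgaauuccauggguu
miR-148a-3p: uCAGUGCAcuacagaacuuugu
A match was the reverse complement of the seed followed by A on the sense strand, TGAATGTA for miR-181a-5p, AGTTCTCA for miR-146a-5p and TGCACTGA for miR-148a-3p, in the longest annotated 3′ untranslated region of the gene. The 42 regions had a median length of 2593 bases, against 1149 over the 15387 tested genes with such a region, and 4 of the 42 genes held a match (9.52%), against 13.0% of those 15387 genes. The sites are shown with capitals for the match.
Csmd1, miR-148a-3p: catcccagattTGCACTGAtac
Dpp10, miR-181a-5p, first site: cgttacctccaTGAATGTAtca
Dpp10, miR-181a-5p, second site: gtaagctgctgTGAATGTAatt
Erbb4, miR-146a-5p: ctttttgaggtAGTTCTCAagg
Nkain2, miR-181a-5p: tttgttaattcTGAATGTAttt
The capitals of the sites lie at chr8:15894134-15894141 for Csmd1, chr1:123324080-123324087 and chr1:123323028-123323035 for Dpp10, chr1:68032381-68032388 for Erbb4 and chr10:31689390-31689397 for Nkain2, all on the minus strand. Between the transgenic groups, as anti-miR-mix relative to control, the log2 fold changes were 0.039 for Csmd1, 0.32 for Dpp10 (SE 0.16, DESeq2 adjusted p = 1.00), 0.16 for Erbb4 and -0.0013 for Nkain2. Their median was 0.10, against 0.020 for the 38 long genes without a match. Over those 15387 genes the medians were 0.0017 with and -0.0029 without a match. A match is a description of letters in this window and not a site of binding.

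Paralogs and binding partners of the 42 genes were a further list of 79 genes. In APP control against WT control 58 of the 79 were below 0, with a median of -0.085, and 2 were called lower, which is 2.53% against 5.00% of all genes called and 1.11% called lower. Cntnap5b, a paralog of Cntnap2, had a mean of 531.9 ± 27.3 (SD, n = 6) in WT control and 372.2 ± 36.8 (SD, n = 6) in APP control, a log2 fold change of -0.51 (SE 0.085, DESeq2 adjusted p = 3.0e-07). Adgrl3, a latrophilin that binds teneurins, had 3117 ± 260.8 in WT control and 2579 ± 189.3 in APP control, at -0.27 (SE 0.064, adjusted p = 0.00086). In APP anti-miR-mix against WT control the median was -0.060 and 8 were called lower, which is 10.1% against 9.51% of all genes called and 3.57% called lower. These were Adgrl3 (-0.34), Adgrl2 (-0.32), Cntnap5c (-0.61), Cntnap5b (-0.29), Unc5c (-0.26), Nkain3 (-0.45), Fgf11 (-0.31) and Nrxn3 (-0.21), with DESeq2 adjusted p between 2.5e-06 and 0.0350. Of these 8, Fgf11 is a short gene of 5.79 kb and Nrxn3, a presynaptic neurexin, spans 1612 kb. None of the 79 was called by DESeq2 between the 2 transgenic groups, and 5 had an unadjusted p under 0.05 there.

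The 42 genes also moved together between libraries of the same group. For each library the deviation of every gene from its group mean was taken on the log2(normalized count + 1) scale. In APP control the median deviation of the 42 genes was 0.25 in replicate 6, where 37 of 42 were above the group mean, and -0.15 in replicate 2, where 7 were. In WT control it ran from -0.14 in replicate 1 (5 of 42 above the mean) to 0.12 in replicate 6 (31 of 42). In APP anti-miR-mix it ran from -0.14 in replicate 1 (6 of 42) to 0.17 in replicate 7 (36 of 42). The median over all genes tested stayed between -0.0097 and 0.014 in the same libraries. The 177 other genes of at least 500 kb deviated in the same direction in the libraries named, with medians of 0.17 in APP control 6, -0.12 in APP control 2, -0.14 and 0.095 in WT control 1 and 6, and -0.069 and 0.11 in APP anti-miR-mix 1 and 7. Microglia markers deviated the other way in these 6 libraries, by -0.59 in APP control 6, 0.46 in APP control 2, 0.51 and -0.39 in WT control 1 and 6, and 0.20 and -0.43 in APP anti-miR-mix 1 and 7. In APP control 5 they were at -0.84, with the long genes at -0.00087. In other libraries the direction was not always opposite. In WT control 5 microglia markers were at 0.39 and the long genes at 0.10, with 33 of 42 above the mean. In WT control 2 they were at -0.20 and -0.056, and in APP anti-miR-mix 2 at -0.33 and -0.040. Nuclear RNAs deviated with the long genes in 5 of the 6, at 0.13 in APP control 6, -0.13 in APP control 2, 0.057 in WT control 6, and -0.14 and 0.21 in APP anti-miR-mix 1 and 7, and were at 0.029 in WT control 1. On this scale the median SD within groups was 0.17 for the 38 long genes with a mean count over 100, and 0.14 for all 12765 such genes.

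These deviations followed a number that the authors had used for their own normalized table. Subtraction of log2(CPM + 1) from the log2 values of that table left 1 pattern over libraries. This pattern accounted for 99.9998% of the remainder over 18825 genes. In this pattern each library had a whole number from 1 to 5, here called the adjustment number. The sources used here do not give its meaning, and no batch is labelled. Libraries with the numbers 1 and 2 had median deviations between -0.15 and 0.000037 for the 42 genes, and libraries with 4 and 5 between -0.00087 and 0.25. Fitted within groups, the slope of the 42 genes over this number had a median of 0.049 per unit on the log2 scale and was above 0 for 34 of them. The median was 0.037 for the 177 other genes of at least 500 kb, with 129 above 0. Over all genes tested it was -0.0074, and 46.7% were above 0. Other measures moved with the number too. The median slope was 0.23 for choroid plexus markers, 0.13 for dentate gyrus markers, -0.14 for microglia markers, 0.046 for nuclear RNAs and -0.043 for CA1 markers. Mitochondrial counts took 2.84 to 3.39% of a library at the numbers 1 and 2 and 3.76 to 4.87% at 3 to 5, with no overlap. Their part in the spread of the long genes was not tested. The mean adjustment number was 2.83 in both control groups and 2.71 in APP anti-miR-mix.

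**Figure D3:**
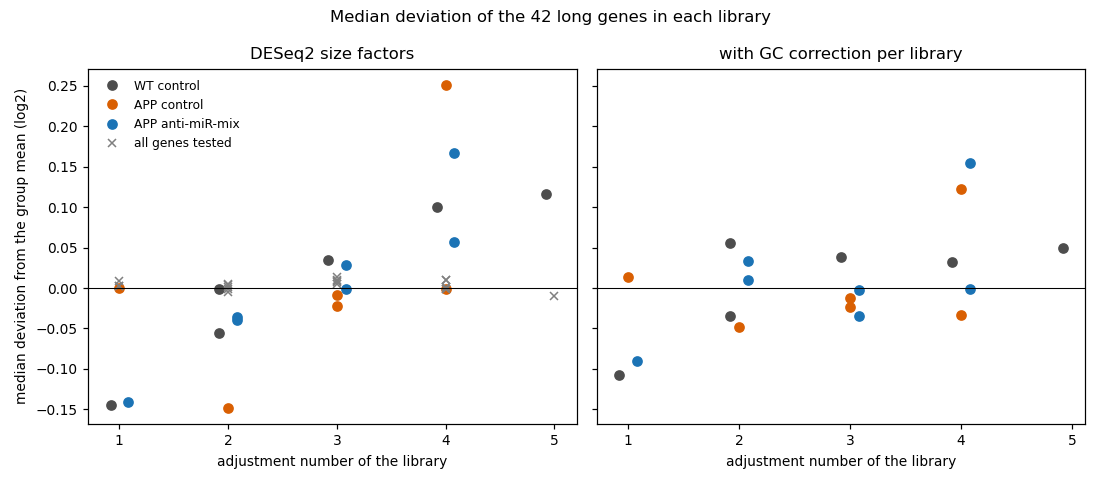
Median deviation of the 42 long genes from their group mean (y axis, log2) in each library against the adjustment number of the library (x axis), with DESeq2 size factors on the left and with a correction for transcript GC content on the right; crosses give the median over all genes tested. On the left the long genes run from -0.15 to 0.25 and the crosses stay between -0.0097 and 0.014, and on the right the long genes run from -0.11 to 0.15.

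Among long genes with a mean count over 100, Cadm2, Il1rapl1 and Erbb4 had the widest spread, with an SD within groups of 0.49, 0.43 and 0.34. Cadm2, a synaptic cell adhesion molecule, had lowest, median and highest counts of 4048, 4712 and 9224 in WT control, 3018, 4776 and 9287 in APP control and 3393, 6084 and 7277 in APP anti-miR-mix. Its highest library held 3.08 times the count of its lowest. Il1rapl1, an organizer of excitatory synapses, had a ratio of 2.83 between its highest and lowest library. The slope over the adjustment number was 0.31 per unit for Cadm2, 0.29 for Il1rapl1 and 0.22 for Erbb4. For these 3 genes the difference between APP control and WT control was -0.19 (SE 0.28), -0.26 (SE 0.23) and -0.32 (SE 0.18), and none passed the threshold. The steadiest genes were Ctnna2, with an SD within groups of 0.053 and a ratio of 1.15 between its highest and lowest library, and Ntm of the IgLON family, with an SD of 0.068. Fhit had a slope of -0.12, the lowest of the 42 genes, on 35 to 84 counts a library.

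Slope and genotype difference were then set beside the base composition of the transcript and the span of the gene. The longest annotated transcript of the 42 genes had a median GC content of 44.8%, against 49.4% over all genes tested. Among genes other than the 42 with a mean count over 100, the median slope over the adjustment number was 0.16 for transcripts under 40% GC, 0.072 at 40 to 45%, 0.0069 at 45 to 50%, -0.036 at 50 to 55% and -0.060 over 55%. Within a GC class, genes under 10 kb and genes over 300 kb of span had median slopes of 0.18 and 0.13 under 40% GC. The values were 0.068 and 0.084 at 40 to 45%, 0.0022 and 0.023 at 45 to 50%, -0.047 and -0.014 at 50 to 55% and -0.064 and -0.049 over 55% GC. The 19 long genes at 40 to 45% GC had a median slope of 0.081, and all 19 were above 0. The 10 at 45 to 50% had 0.014 and the 8 at 50 to 55% had 0.0053. The 4 under 40% GC, Il1rapl1, Cadm2, Fgf14 and Dpp10, had a median of 0.22.

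**Figure D4:**
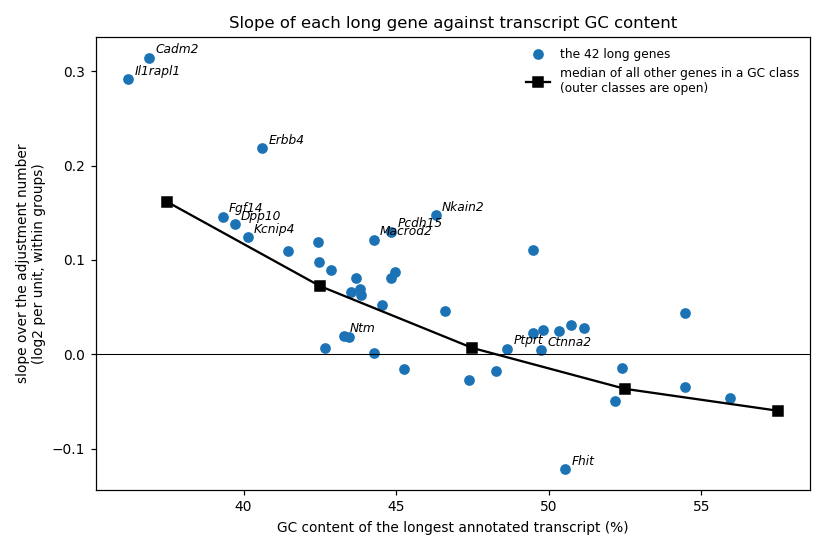
Slope over the adjustment number (y axis, log2 per unit, within groups) of each of the 42 long genes (circles) against the GC content of its longest transcript (x axis, percent), with the median of all other genes with a mean count over 100 in 5 GC classes (squares). Il1rapl1 (36.2% GC) and Cadm2 (36.9% GC) have slopes of 0.29 and 0.31, while Csmd2 (55.9% GC) has -0.046.

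In each GC class the median genotype difference was lower over 300 kb than under 10 kb of span. Within the class of 45 to 50% GC the median log2 fold change of genes other than the 42 went from -0.0021 under 10 kb of span to -0.12 over 300 kb, and within the class of 50 to 55% GC from 0.014 to -0.085. It was -0.033 and -0.13 for these spans under 40% GC. The long genes themselves had medians of -0.17 under 40% GC, -0.16 at 40 to 45%, -0.090 at 45 to 50% and -0.16 at 50 to 55%, and Csmd2, the gene over 55% GC, was at -0.21. Correction of each library for transcript GC content left the median of the 42 genes at -0.12 in APP control and at -0.11 in APP anti-miR-mix against WT control. With it, the median slope of the 42 genes over the adjustment number went from 0.049 to 0.022, with 31 above 0, and the number called was 4 in APP control (Ptprt, Dmd, Dpp6 and Lrp1b) and 8 in APP anti-miR-mix, the 7 genes named above and Csmd3. The share of all genes called with the correction was 7.56% and 12.9%, against 5.00% and 9.51% without it. These are values across genes, which are not independent replicates.

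**Figure D5:**
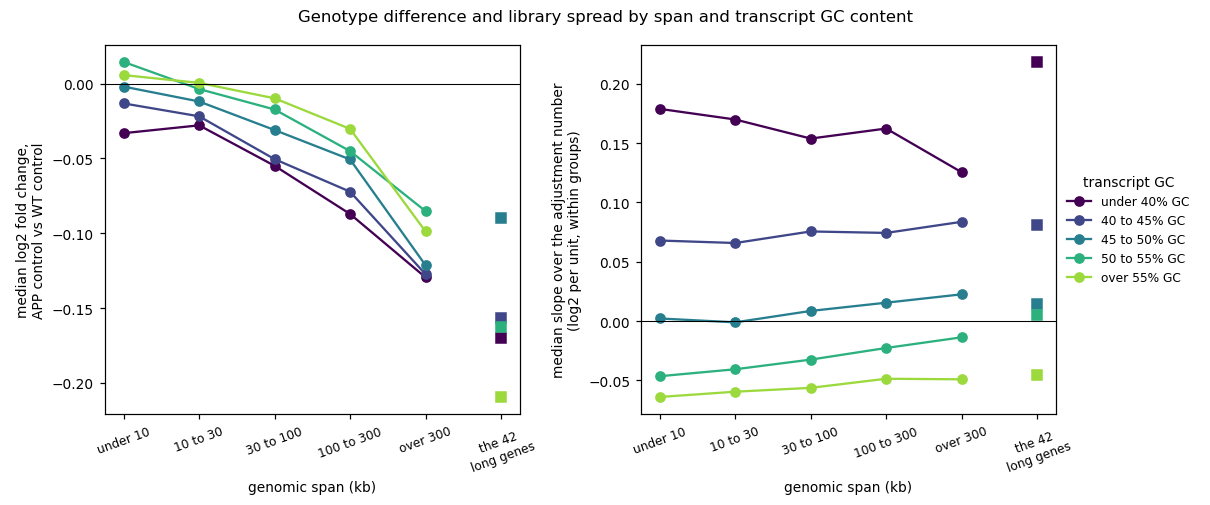
Median log2 fold change of APP control against WT control (left, y axis) and median slope over the adjustment number (right, y axis) for genes with a mean count over 100 in classes of genomic span (x axis, kb) and transcript GC content (colours), with the 42 long genes as squares. On the left each GC class is lower over 300 kb than under 10 kb, for example at -0.085 against 0.014 for 50 to 55% GC, and on the right they are set apart by GC content, from 0.16 under 40% to -0.060 over 55% for all spans together.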

How the data were processed

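Reads of 50 nt were aligned by the authors to mm10 with STAR 2.5.2b and counted per Ensembl gene with featureCounts (Subread 1.5.1). The annotation release and the strand setting are not given in the sources used here. The deposited files hold raw read counts per gene for each of the 19 libraries, and 1 deposited table holds normalized log2 values of 18825 genes, which served for limma and for the adjustment number only. Of 48709 genes, 48349 matched GENCODE M21, and 14228 had no count in any library. Exons of 13 of the 42 genes overlap exons of another annotated gene, 11 of them on the opposite strand, so that such reads cannot be told apart.

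Genes with at least 5 counts in 50% of the libraries were tested with DESeq2 1.42.0 (Wald test, all 19 libraries in 1 fit, group as the only term, Benjamini-Hochberg adjustment over all genes, threshold 0.05), the tool the study names. Alternatives used edgeR 4.0.16 (quasi-likelihood) and limma 3.58.1 in R 4.3.3, other filters and scalings, further terms and left-out libraries. Exact permutation tests used log2(normalized count + 1). GC correction used normalization factors from the median deviation of 20 GC classes, over 19237 genes with a transcript. The members and the gene lists were chosen with earlier results of these data known. All 42 members could be named, those past the threshold and the 3 with the smallest p under the anti-miR-mix were described in full, and of the other lists the genes called were named. No 2 libraries agreed within sampling noise. The labels do not say that each library is a separate animal, so p-values measure the spread between these libraries. For 18 pairs of libraries with the same replicate number, the correlation of deviations ran from -0.13 to 0.65 and was over 0.1 in 12, so that the numbers were not taken to pair the samples.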

Additional observations from a re-analysis of the deposited data

Results flagged for a closer look

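In 126 groups of libraries (42 genes in 3 groups) Dixon's test at the 95% level singled out 4 values, and chance gives about 1 in 20 groups, or 6.3 here. Cadm2 in APP control replicate 6 was the highest of its group at 9287 normalized counts, against 3018 to 4939 in the other 5 libraries. Pcdh15, a protocadherin, was at 1330 in the same library, against 722.4 to 891.4. This is the library in which 37 of the 42 genes were above the group mean. Ptprd in WT control replicate 4 was the lowest of its group at 7322, against 9221 to 10341, while 23 of the 42 genes were above the mean there. Nrg1 in APP anti-miR-mix replicate 7 was the highest of its group at 312.9, against 228.0 to 263.4, and 36 of the 42 genes were above the mean in that library.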

How the results depend on the processing

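The median log2 fold change of the 42 genes stayed below 0 in both comparisons with WT control under all 31 alternatives, at -0.19 to -0.11 in APP control and -0.16 to -0.086 in APP anti-miR-mix. The number called did not keep its size. In APP control against WT control it was 1, and became 0 with edgeR (3.22% of all genes called), with only the 2 groups compared (4.02%), with limma (5.40%) and without the libraries high in choroid plexus genes (4.82%), 8 with the mitochondrial share as a term, and 0 to 5 with single libraries left out. In APP anti-miR-mix against WT control it was 7, and became 15 with the mitochondrial share, 4 without the libraries high in choroid plexus genes and 3 to 10 with single libraries left out. Chosen after seeing the data, a linear term for the adjustment number gave 7 calls in APP control (7.63% of all genes) and 10 in APP anti-miR-mix (13.6%). As a factor it gave 4 without Ptprt (5.02%) and 9 (9.74%), and the GC correction gave 4 (7.56%) and 8 (12.9%). With the replicate block the calls were 7 for APP control and 14 for the anti-miR-mix, each relative to WT control, and 0 between the transgenic groups. Of 18 pairs with the same number 12 correlated over 0.1, which does not hold for every pair of any comparison, so the numbers were not taken as pairing. In 10 of 36 matches of a library to another group the best match had its own number. Within groups the adjustment number never fell as the replicate number rose, so the block and the terms for the adjustment number overlap. The share of all genes called moved as well, to 7.33% and 12.9% with the block and 8.67% and 17.5% with the mitochondrial share. Between the transgenic groups no long gene was called under any of the 31 alternatives. No called direction was reversed. The causes were not tested.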
